A study of Strongylocentrotus purpuratus and Patiria miniata with 4 samples.

Results

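Sea star Tbrain (Tbr) peaks that lie at an intermediate distance from another Tbr peak were described here: peaks whose summit is more than 200 bp and at most 1000 bp from the nearest other summit on the same scaffold. They were chosen from the measured summit positions alone, and 1730 of the 13977 sea star peaks met the rule, or 12.4%, out of 17126 peaks in the lists of both species. They lay on 750 of the 8491 sea star scaffolds with a peak. Binding was profiled by ChIP-seq, the sequencing of chromatin immunoprecipitated with an antibody, in whole embryos of the bat star Patiria miniata, grown at 15 °C to the hatched blastula stage, about 30 hours after fertilization, with an antibody made against the sea star's own Tbr. Fixation was with 1% formaldehyde for 10 min. Chromatin was cut with micrococcal nuclease, which digests the DNA between nucleosomes. The material of 2 to 3 cultures, each fertilized on its own, was combined into 1 immunoprecipitation, so the list rests on 1 ChIP library and on 1 input library, made from chromatin before the antibody step. The other 2 libraries of the series are the ChIP and input of the purple sea urchin Strongylocentrotus purpuratus at mesenchyme blastula, about 24 hours after fertilization. Those embryos were also grown at 15 °C, with the same formaldehyde fixation.

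Tbr belongs to the T-box transcription factors, the family of vertebrate Eomes and Tbr1, which bind DNA through a conserved T-box domain. Tbr acts in the network that specifies endomesoderm in the sea star embryo, and in the sea urchin it is used by the cells that build the larval skeleton. Regulatory DNA of animal embryos often carries several sites for a factor close together, and a factor bound at separate sites of such a stretch gives separate ChIP-seq summits. No genome of the sea star was used here, so the peaks are given by scaffold position only, and no gene, motif or sequence is assigned to them.

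Each value below comes from 1 peak list. The fold enrichment is the authors' ratio of ChIP over the local background, taken at the summit, and the −log10 q is the authors' significance of the same contrast. ChIP fragments at the summit were computed from these 2 deposited kinds of value, as was the scaled input, which is the local background in fragments; its lowest value, 1.77, is the genome-wide mean. Since summits were called in the same contrast, and with 1 library, no difference between peak classes was tested, and quartiles describe the spread among peaks, which are not replicates.

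The spacing of the members was skewed towards the lower limit. In all, 984 pairs of neighbouring summits were over 200 and at most 1000 bp apart, with a median of 417.5 bp (quartiles 273.75 and 626.25). Pairs were most numerous in the lowest step of 100 bp, up to 300 bp, with 301 of the 984, or 30.6%. The count fell to 168 in the step up to 400 bp, 132 up to 500 bp, 107 up to 600 bp and 103 up to 700 bp. It was 65 in the step up to 800 bp, 60 up to 900 bp and 48 up to 1000 bp, which was also the count in the step up to 1100 bp, just outside the rule. The lower limit cut through the crowded part of this distribution, since 339 pairs were over 100 and at most 200 bp apart, while the upper limit lay where the counts had levelled off. From edge to edge, the intervals of neighbouring peaks were 303.5 bp apart at the median, with a lowest value of 3 bp. Edges were under 100 bp apart in 58 of the 984 pairs, so most neighbours had at least 100 bp of uncalled sequence between them.

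**Figure D1:**
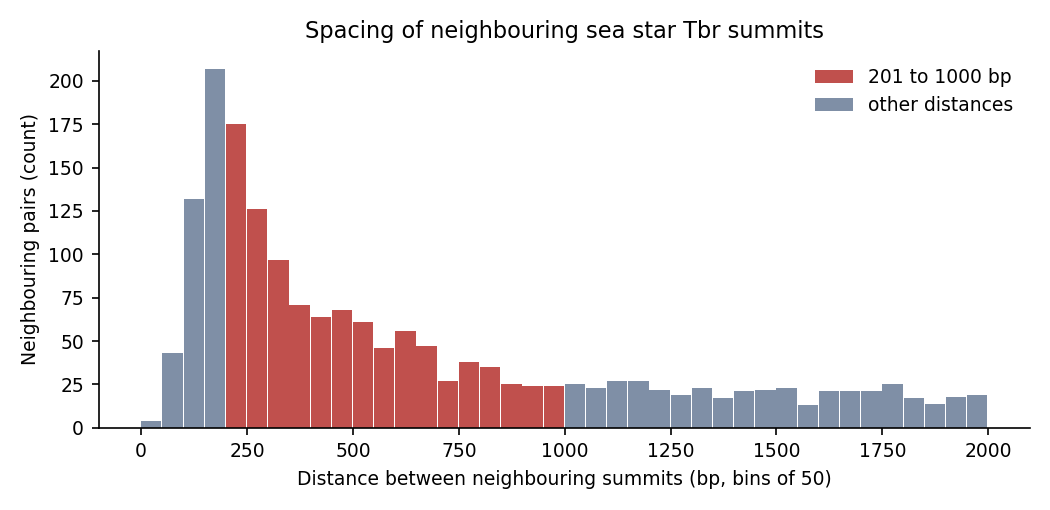
Number of pairs of neighbouring sea star Tbr summits (vertical axis) by the distance between them in bp, in bins of 50 bp (horizontal axis), with distances over 200 and up to 1000 bp in red. The red bars fall from the lower limit and reach the level of the bars past 1000 bp at the right; 984 pairs are in red.

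Counted from each peak, the nearest summit was 396 bp away at the median (quartiles 266 and 614.75), and at most 997 bp away. For 1668 of the 1730 members that nearest summit was itself a member, and for the others it belonged to a peak with a neighbour within 200 bp. The closest members by this rule, with summits at 33588 and 33789 on Scaffold8934, had fold enrichments of 7.11 and 8.32. Just outside, at 200 bp, the peaks with summits at 295 on Scaffold67494 and at 47645 on Scaffold7201 had 5.47 and 7.58. The farthest members, 997 bp apart on Scaffold479 at 40463 to 40561 and at 41452 to 41564, had 5.09 and 6.0. Just outside this limit, 1 bp past it, the peaks on Scaffold7 at 84362 to 84468 and on Scaffold11362 at 3463 to 3546 had 3.32 and 7.49.

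Most members came as lone pairs. Linking all summits at most 1000 bp from the next gave 810 groups that hold a member. Of these, 660 were exactly 2 members with no further peak, and they held 1320 of the 1730 members. A further 67 groups had exactly 3 members, 20 had exactly 4, 2 had 5 and 1 had 6, in each case with no other peak. The other 60 groups, with 113 members, also held summits within 200 bp of each other. In 41 of these a tight pair had 1 member beside it. The 2 peaks of a lone pair were the only peaks of their scaffold in 267 of the 660 pairs.

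Scaffolds with members mostly held a single pair. Of the 750 scaffolds, 595 had exactly 2 members, 61 had 3, and 49 had 4 to 9. Another 39 had 1 member, near peaks that had a summit within 200 bp of their own. The remaining 6 scaffolds had 10 or more members each, with 93 in all. Of the 3019 scaffolds with 2 or more sea star peaks, 24.8% held a member.

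Members rested on more ChIP fragments at the summit but also on more input than the isolated peaks, and their fold enrichment was lower. The median member had 32 fragments at its summit (quartiles 25 and 43) over a scaled input of 4.58 (3.08 and 7.20). Peaks with no summit within 1000 bp on their scaffold, 11486 in number, had a median of 26 fragments (22 and 32) over 3.08 (2.16 and 4.63). The median fold enrichment was 5.67 in members (4.52 and 7.0) and 6.22 in those peaks (5.14 and 7.47). The 761 peaks with a summit at most 200 bp away had 29 fragments, a scaled input of 4.11 and a fold enrichment of 5.70 at the median, near the values of the members. The quartile ranges of the 3 classes overlap widely in each measure. Without the scaffolds of 10 or more peaks the members' medians were 30 fragments, a scaled input of 4.11 and a fold enrichment of 5.86.

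The median −log10 q of members was 12.8 (quartiles 10.0 and 16.9), against 11.8 (9.32 and 15.3) in the whole sea star list. A −log10 q of 10 or more was reached by 1303 members, or 75.3%, beside 68.5% of all sea star peaks. Fold enrichments of at least 10 were found for 57 members, or 3.29%, beside 3.57% of all sea star peaks. Both measures come from the contrast that placed the summits, and nothing is read from these shares. Widths ran from 84 bp, the shortest in the list, to 382 bp, with a median of 98 bp (88 and 117) against 94 bp (86 and 109) in the isolated peaks. Widths of 200 bp or more were found in 32 members, or 1.85%, and in 1.23% of the isolated peaks. The widest member, on Scaffold617 at 128861 to 129242, had a fold enrichment of 3.00, from 113 fragments and a scaled input of 37.0.

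The medians of fold enrichment, fragments and width differed little with the distance to the neighbour. The median fold enrichment was 5.73 in the 574 members with the nearest summit at most 300 bp away, 5.56 in the 298 at 300 to 400 bp and 5.62 in the 403 at 400 to 600 bp. It was 5.69 in the 270 members at 600 to 800 bp and 5.67 in the 185 at 800 to 1000 bp, where each class leaves out its lower limit. Each of these medians lies inside the quartiles of every other spacing class. Median fragments ran from 29 at 800 to 1000 bp to 33 at 600 to 800 bp, and median widths from 94 bp at 800 to 1000 bp to 100 bp at up to 400 bp, with no steady order for fragments. The share of members with a scaled input over 5 times the genome-wide mean varied more, again without a steady order. From the closest to the farthest class it was 16.9%, 20.5%, 19.1%, 25.2% and 13.0%, and this was not tested.

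The share of peaks that were members rose with the local input. Of the 1549 sea star peaks whose input did not exceed the genome-wide mean, 88 were members, or 5.68%. The share was 8.03% at up to 1.5 times the mean, 10.2% at 1.5 to 2 times and 12.7% at 2 to 3 times. It reached 16.8% at 3 to 5 times and 24.6% at 5 to 10 times. Of the 354 peaks with more than 10 times the mean, 166 were members, or 46.9%. A scaled input over 5 times the mean was found at 327 members, or 18.9%, and at 4.93% of the isolated peaks. Peaks with a summit at most 200 bp away behaved likewise, since their share of all peaks was 2.91% at the genome-wide mean and 14.1% above 10 times the mean, and 15.1% of them were over 5 times the mean. Of the 327 members over 5 times the mean, 115 lay on scaffolds with 10 or more peaks. On the other scaffolds the share over 5 times the mean was 13.4% of members and 11.2% of peaks with a summit at most 200 bp away. There it was 4.46% of peaks with the nearest summit over 1000 bp away and 4.75% of those alone on their scaffold. What gives rise to high input at these places was not tested; the input counts reads as the authors placed them on the assembly.

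**Figure D2:**
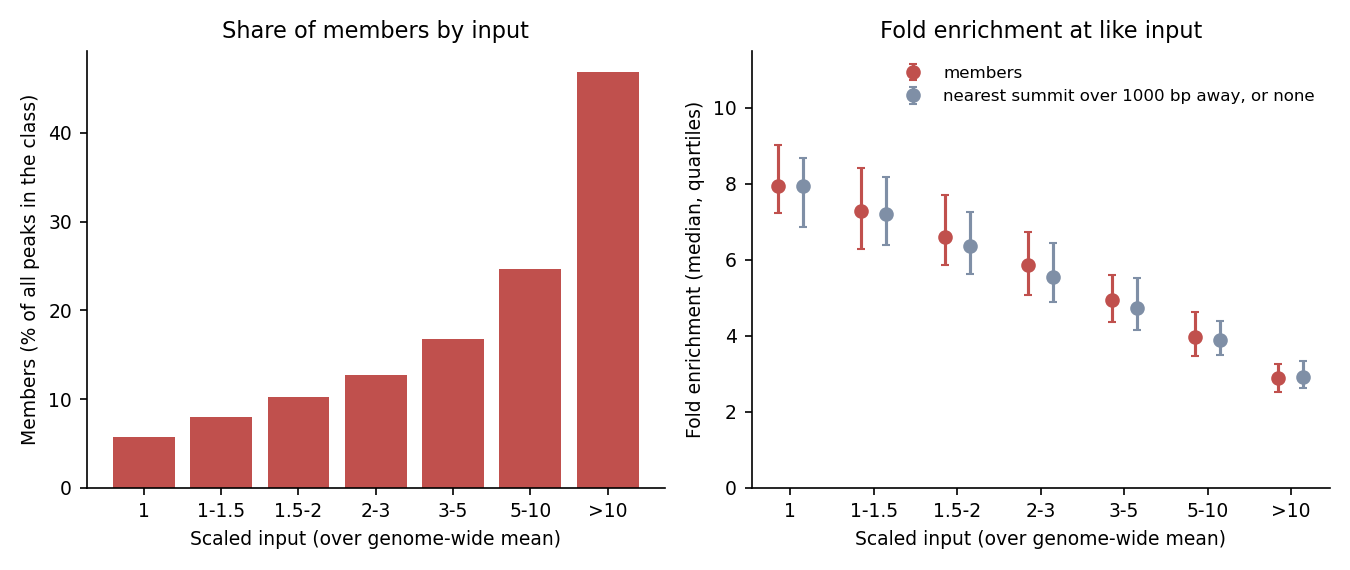
Left, members as a percentage of all sea star peaks (vertical axis) in 7 classes of scaled input, as multiples of the genome-wide mean (horizontal axis). Right, median fold enrichment with quartiles (vertical axis) in the same classes, for members (red) and for peaks with no summit within 1000 bp (grey). The share of members rises from 5.68% to 46.9%, while at like input the 2 medians lie close together.

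At like input, the median fold enrichments of members and isolated peaks lay close together. Every sea star peak had a −log10 p of at least 5.13, which bounds the fold enrichment from below at each input, in both classes. How far this made the medians alike was not tested. With the scaled input at the genome-wide mean, the median was 7.94 in both the 88 members (quartiles 7.22 and 9.03) and the 1416 isolated peaks (6.86 and 8.67), with 21 fragments in each. It was 7.28 in members and 7.20 in isolated peaks at up to 1.5 times the mean, and 6.61 and 6.37 at 1.5 to 2 times. At 2 to 3 times the mean it was 5.86 in 501 members (5.09 and 6.74) and 5.54 in 3241 isolated peaks (4.89 and 6.45), with 30 and 28 fragments. At 3 to 5 times it was 4.95 and 4.74, with 39 and 35 fragments, and at 5 to 10 times 3.97 and 3.901. Above 10 times it was 2.89 in members and 2.93 in isolated peaks, with 96.5 and 83 fragments. The median was thus higher in members in 5 of the 7 classes, the same to 2 decimals at the genome-wide mean and lower above 10 times the mean. In each of the 7 classes the difference was smaller than the distance between the quartiles of the members. Over the whole list, members had the lower median fold enrichment and the larger share over 5 times the mean input, 18.9% against 4.93%. Whether the 2 are linked was not tested.

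The fold enrichments of the 2 peaks of a pair rarely differed 2-fold or more. The whole sea star list was itself narrow, with quartiles of 5.02 and 7.34. Over the 660 lone pairs, the higher fold enrichment was 1.27 times the lower at the median (quartiles 1.13 and 1.52). The ratio was at most 1.2 in 255 pairs, or 38.6%, and at least 2 in 33 pairs, with a highest value of 3.37. Neighbouring summits over 1000 and up to 5000 bp apart gave the same median, 1.27 (1.13 and 1.51, 1080 pairs), and those at most 200 bp apart gave 1.29 (1.13 and 1.54, 386 pairs). By this measure, members of a pair were about as alike as neighbours further away, which were not limited to lone pairs. Peaks that are not neighbours were not compared. The first peak in scaffold order was the higher in 321 pairs, the second in 336, and in 3 they were equal. In 634 of the 660 pairs, or 96.1%, the 95% Poisson intervals of the 2 fragment counts overlapped. Overlap of separate intervals does not show that 2 counts are alike, and the order within pairs was not tested.

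**Figure D3:**
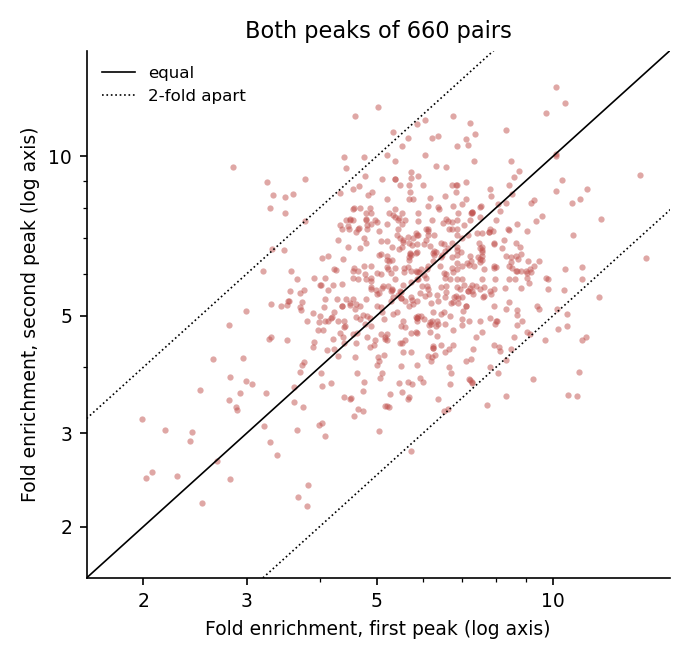
Fold enrichment of the first (horizontal axis) and second peak (vertical axis) in scaffold order, both on log axes, for each of the 660 lone pairs (points). The solid line marks equal values and the dotted lines a 2-fold difference; 33 pairs lie on or beyond the dotted lines.

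Across the lone pairs, Spearman's rho between partners was 0.25 for fold enrichment, 0.51 for fragments and 0.53 for scaled input. Partners share the library and lie on the same scaffold. In the neighbours at most 200 bp apart the values were 0.32, 0.63 and 0.71, and in those over 1000 and up to 5000 bp apart they were 0.30, 0.43 and 0.45. Across these sets the values for fragments and input were lower at larger distances, and those for fold enrichment had no such order. Within the lone pairs, rho for fragments did not fall with distance. It was 0.48 at up to 300 bp, 0.53 at 300 to 500 bp and 0.52 at 500 to 1000 bp. For input it was 0.60, 0.56 and 0.45 in the same classes. The closer and the farther neighbours were not limited to lone pairs, and how far this changed their values was not tested. Both peaks had a fold enrichment of at least 10 in 4 of the 660 lone pairs, and 1 of the 2 had it in 42. These counts were 1 and 62 of the 1080 neighbours over 1000 and up to 5000 bp apart. They were 1 and 24 of the 386 at most 200 bp apart. Of all sea star peaks 3.57% had such a fold enrichment, and nothing is read from these counts.

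In groups of exactly 3 members, the summits spanned 935 bp at the median (quartiles 737 and 1175.5). The larger of the 2 gaps was 1.7 times the smaller at the median. The gaps were within 1.2 times of each other in 14 of the 67 groups and differed by 2 times or more in 22. Even spacing was therefore not the rule. The highest fold enrichment was at the first peak in 19 groups, at the middle one in 21 and at the last in 27.

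The 5 members with the highest −log10 q each had a weaker neighbour. On Scaffold9824, the member at 9942 to 10081 reached a fold enrichment of 10.8 on 71 fragments (95% Poisson interval 55.5 to 89.6). Its partner, 395 bp away at 9558 to 9643, reached 5.65 on 25 fragments (16.2 to 36.9). On Scaffold5158, the member at 4428 to 4583 reached 11.7 on 65 fragments (50.2 to 82.8), and its partner at 4027 to 4111 reached 6.05 on 27 (17.8 to 39.3). In both pairs the fragment intervals do not overlap.

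The others were on Scaffold31341, Scaffold7912 and Scaffold7848. The member on Scaffold31341 at 30 to 165, next to the first base of the scaffold, reached a fold enrichment of 11.02 on 61 fragments (46.7 to 78.4), and its partner 329 bp away 3.53 on 37 (26.1 to 51.0), so that these intervals overlap. The member on Scaffold7912 at 6856 to 7118 reached 9.49 on 63 fragments (48.4 to 80.6), and its partner 437 bp away 4.44 on 24 (15.4 to 35.7), with no overlap. The member on Scaffold7848 at 12617 to 12723 had a −log10 q just above that of the Scaffold7912 member, 37.5 against 36.9. It reached 5.23 on 109 fragments (89.5 to 131), with an input 11.3 times the mean. It was part of a group of 4 members whose others had fold enrichments of 3.01, 3.38 and 3.02. These 5 were picked for their own height, so a lower partner follows in part from the choice.

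The 3 highest fold enrichments among members are given next; picking by this ratio also picks low input, its denominator. The member on Scaffold6210 at 53723 to 53875 reached 14.4 on 43 fragments (31.1 to 57.9), and its partner 716 bp away reached 6.44 on 22 (13.8 to 33.3). On Scaffold3134, the member at 29402 to 29514 reached 14.1 on 38 fragments (26.9 to 52.2), with its input at the genome-wide mean, and its partner at 29870 to 29985 reached 9.24 on 32 (21.9 to 45.2). On Scaffold10496, the member at 2412 to 2534 reached 13.5 on 37 fragments (26.1 to 51.0), and its partner 240 bp away at 2164 to 2273 reached 10.1 on 30 (20.2 to 42.8). In each of these 3 pairs the intervals of the fragment counts overlap.

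In 73 of the 660 lone pairs both peaks had a scaled input of at most 1.5 times the genome-wide mean. Ranked by the lower −log10 q of the 2 peaks, the first of these was on Scaffold29525, at 24 to 152 and 306 to 450. It had 31 and 34 fragments, and fold enrichments of 10.5 and 12.6. The pairs on Scaffold10496 and Scaffold3134 above came next. Ranked in the same way over all lone pairs, the first was on Scaffold3405 at 27083 to 27172 and 27699 to 27782, with 98 and 101 fragments but fold enrichments of 4.02 and 3.89, over a scaled input 13.4 and 14.2 times the mean. The ranking of pairs by significance thus mixed pairs with many fragments on high input and pairs with fewer fragments on low input.

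Groups with many members lay mostly on high input. The 29 groups with 4 or more members held 139 members, with a median fold enrichment of 3.48 (quartiles 2.89 and 5.17) and a median scaled input 10.8 times the genome-wide mean (3.92 and 20.6). In the lone pairs these medians were 5.86 (4.79 and 7.18) and 2.32 (1.56 and 3.51), and in the groups of exactly 3 they were 5.67 and 2.32. The median input of the group was over 5 times the mean in 16 of the 29 larger groups, or 55.2%, in 17.9% of the groups of 3 and in 10.8% of the lone pairs. Fragments at the summit were 73 at the median in the larger groups and 30 in the lone pairs.

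The group with most members was on Scaffold3646, where 16 summits, 10 of them members, spanned 6419 bp from 59240 to 65659. Its fold enrichments ran from 2.43 to 4.04 and its fragments from 49 to 128, over a scaled input of 7.79 to 26.4 times the mean. Neighbouring summits were 145 to 181 bp apart in its 2 runs of 3 tight peaks. The members of this group had nearest summits 410 to 613 bp away. Scaffold3405 also had a group with 10 members, among 12 peaks over 4567 bp, with fold enrichments of 2.18 to 3.67. The 6 groups with 6 or more members lay on 4 scaffolds, Scaffold3646, Scaffold3405, Scaffold442 and Scaffold2718, with a median input of 16.9 to 24.3 times the mean.

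**Figure D4:**
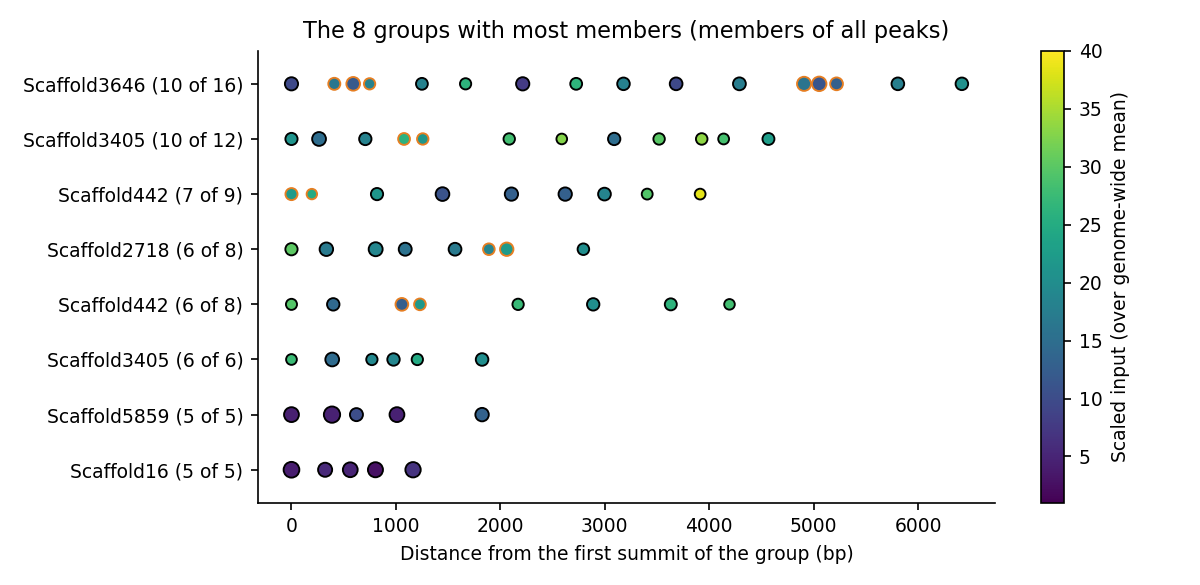
Summits of the 8 groups with most members, 1 row a group, by distance in bp from the first summit of the group (horizontal axis); colour gives the scaled input as a multiple of the genome-wide mean, and the area of a point rises with its fold enrichment. Black outlines mark members and orange outlines peaks with a summit within 200 bp; the Scaffold3646 group at the top reaches 6419 bp, and the 2 groups of 5 at the bottom have the lowest input.

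Of the larger groups, 4 had a median input of at most 2 times the mean and 9 lay between 2 and 5 times. The 4, chosen after their values were seen, had 4 members each and no other peak. The group on Scaffold4889 had summits at 57536, 57872, 58473 and 58839, with fold enrichments of 5.69, 11.02, 6.16 and 7.10 on 31, 44, 21 and 28 fragments. On Scaffold6775, the summits at 44102, 45022, 45809 and 46584 had fold enrichments of 6.57, 6.22, 6.60 and 10.1 on 19 to 30 fragments. The summits of the Scaffold1797 group spanned 1139 bp, with fold enrichments of 5.63 to 8.96, and those of the Scaffold18736 group spanned 1317 bp, with 5.28 to 7.85. Fragments ran from 18 to 44 in these 4 groups and from 49 to 156 in the groups with 6 or more members. The groups were picked for low input, the denominator of the fold enrichment, so their fold enrichments are not compared.

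The scaffold with most members was Scaffold3405, with 24 of its 29 peaks in 5 groups between 18756 and 36445. Its members had a median of 109 fragments, a fold enrichment of 2.80 and a scaled input 20.9 times the mean. Scaffold158 followed with 19 members of 36 peaks in 7 groups, at medians of 71 fragments, 3.34 and 12.2 times the mean. Scaffold442 had 17 members of 23 peaks, at 107 fragments, 2.96 and 20.05 times the mean. All 18 sea star scaffolds with 10 or more peaks held members, and these made up 153 of the 1730, or 8.84%. Of the other peaks, 1.05% lay on those scaffolds. None of the 153 reached a fold enrichment of 10, beside 3.57% of all sea star peaks, and the highest was 9.97. Their median scaled input, the denominator of the fold enrichment, was 12.8 times the mean, so nothing is read from this count.

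A summit in the first 300 bases was found for 36 members, or 2.08%, against 12.2% of the 5472 peaks that were alone on their scaffold and 1.08% of the 6014 with their nearest summit over 1000 bp away. A short scaffold has room for fewer peaks, and scaffold lengths were not used here, so the shares are given as counts only.

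By the same rule, the sea urchin list gave 524 peaks of 3149, or 16.6%, on 158 scaffolds. Their nearest summit was 494 bp away at the median (quartiles 325.75 and 714), against 396 bp in the sea star. The median width was 161 bp, against 98 bp. The lists differ in species, antibody, stage and the limits used in calling, which cannot be told apart, and neither difference was tested. They also differ in size, with 13977 sea star peaks on 8491 scaffolds and 3149 sea urchin peaks on 1199 scaffolds.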

How the data were processed

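Per the submitters' processing notes, the tools named are MACS2 2.1.0, Bowtie2 2.2.2, SAMtools 0.1.19 and CASAVA 1.8; no source used here gives their settings or the genome builds. The deposited fold enrichment is a ratio, and the deposited significance columns are −log10 of the p-value and of the q-value. The deposited score was, in 100% of sea star peaks, 10 times −log10 p without its decimals, and was not used further. Summits are 1-based scaffold positions.

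The pileup of each peak was found as the whole number up to 599 that gave the deposited −log10 p under the Poisson tail, with fold enrichment as pileup plus 1 over background plus 1. It met the deposited −log10 p within 0.001 in 100% of sea star peaks. It was also recovered in 100% of 13977 simulated peaks drawn from known pileups by the same formulas, which checks the arithmetic only. The 95% intervals of fragments are exact Poisson limits for counting error alone. Library totals were not used, so depth is given by fragments at each summit.

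No test between classes was made. The members, lists and alternatives were chosen with earlier results of these data known. Named peaks were the 5 most significant members by −log10 q, the 3 of highest fold enrichment, the widest, the largest group and scaffold (ties by the higher summed −log10 q), the pair with the highest lower −log10 q and those next to each limit. Others are said to be chosen after their values were seen; these include the pairs at low input. Python 3.11.15, pandas 2.3.3 and SciPy 1.17.1 were used.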

Additional observations from a re-analysis of the deposited data

How the results depend on the processing

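Of 72 values recomputed under 9 alternatives, 46 stayed within 1.5 times (counts) or inside the 95% order-statistic interval of the median over peaks. That interval treats peaks as independent and gives no spread between libraries. Among peaks past a −log10 q of 10, members numbered 1067 in 493 groups, with medians of 36 fragments, a fold enrichment of 5.97, a scaled input of 4.66, a width of 101 bp and a partner ratio of 1.22. With a fold enrichment of 5 or more they numbered 906 in 437 groups, with 29 fragments, 6.57, a scaled input of 3.37 and a partner ratio of 1.199. An upper limit of 500 bp left 1099 members in 536 groups, with a median gap of 300 bp and a width of 100 bp. An upper limit of 2000 bp gave a gap of 593.5 bp, 30 fragments, a fold enrichment of 5.78 and a scaled input of 4.11. Lower limits of 150 bp and 300 bp gave gaps of 345 bp and 534 bp. Without scaffolds of 10 or more peaks the medians were 30 fragments, 5.86 and a scaled input of 4.11. The gaps and counts follow from the limits themselves. The filters on −log10 q and fold enrichment select on the values reported. Their shifts in fold enrichment, fragments, scaled input and partner ratio thus follow in part from the choice. For the other values the cause was not tested. Counting summits within 200 bp as 1 gave 1802 members in 813 groups, and midpoints in place of summits gave 1751 in 815.

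No paired analysis was possible because there is only 1 ChIP library, and no replicate could be left out. Depth limits single peaks, since the median member rests on 32 fragments.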
